A study of Saccharomyces cerevisiae with 6 samples.

Results

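The genes described here are 10 genes of thiamine synthesis, uptake and regulation in budding yeast, Saccharomyces cerevisiae. They were chosen by name among the 5365 genes named on the array, with earlier results of these data known. They are THI2, THI3, THI4, THI5, THI6, THI7, THI11, THI20, THI21 and THI80, each with 1 probe. Of the 10, 9 had a value in at least 1 scan, 8 in at least 2 replicates and 4 in all 3 replicates. Over all named genes, 3613 had a value in all 3 replicates and 4956 in at least 2.

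The study asked how thorium, an actinide metal, is toxic to yeast. Cells of strain S288C, growing exponentially in YPD, a rich medium of peptone, yeast extract and glucose, at 25 °C, were exposed to thorium at a final 5 mM for 2 h, and the control cells were grown for 2 h with no treatment. PolyA RNA of the treated cells carried Cy5 and that of the control cells Cy3 on the same array, in 3 hybridizations from independent biological samples, each of which was read by the scanner at a high and a low laser setting. No hybridization had the dyes exchanged. All values below are log2 ratios read as thorium over untreated, so that a value above 0 is likely more RNA in thorium. The value table states neither direction nor base: the direction follows which channel the labels list first, and base 2 is an assumption. A ratio compares bulk cultures, in which fewer cells making a transcript and less of it per cell cannot be told apart.

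Thiamine diphosphate, the active form of the vitamin, is the cofactor of enzymes that break or join bonds next to a carbonyl carbon, among them pyruvate decarboxylase, on which ethanol fermentation rests. Yeast takes thiamine up from the medium, or makes a thiazole part and a pyrimidine part separately, joins them to thiamine phosphate and ends with thiamine diphosphate. The THI genes are known to be repressed when thiamine is plentiful and to be turned on when it is scarce, through the activators Thi2 and Pdc2 and the sensor Thi3.

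Replicate 1 stood apart from the other replicates before any thiamine gene was considered. Across genes, which are not independent replicates, the log2 ratios of replicates 2 and 3 had a Pearson r of 0.560, whereas replicate 1 had 0.0639 with replicate 2 and 0.0322 with replicate 3. The scans of one hybridization had 0.778, 0.763 and 0.934 in replicates 1, 2 and 3. Results are therefore given with replicate 1 and without it. Values also moved with the section of the array that holds a probe, as described below. Section medians in replicates 2 and 3 were close for THI80, at -0.85 and -0.78, and on either side of 0 for THI7, at -0.33 and 0.30. How much of the r of 0.560, or of the calls made without replicate 1, comes from array position was not tested. The thiamine genes were also measured less completely than the array as a whole. High power scans gave a value in 70% of their cases against 85.1% for all genes, and low power scans in 33.3% against 64.1%. Whether spots were lost more often on one side of the comparison was not tested.

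The transport and synthesis genes that could be measured lay mostly above 0 in thorium, the kinase THI80 lay below 0, and no member passed the test over all genes. Among the 8 members with at least 2 replicates, THI20 had the highest mean, 2.09 ± 0.86 (SD, n = 2, replicates 1 and 2), a ratio of 4.25. THI80 had the lowest, -1.47 ± 0.09 (SD, n = 2, replicates 2 and 3), which is 2.77-fold lower in thorium. These means rest on different replicates. In replicate 2 THI20, at 1.48, lay below THI4 at 1.57 and THI2 at 1.50. THI11, THI6 and THI7, measured in all replicates, stood at 0.78 ± 0.72, 0.73 ± 0.50 and 0.72 ± 0.48 (SD, n = 3), and THI3 at -0.33 ± 0.45 (SD, n = 3). With limma's moderated test on 3 replicates and Benjamini-Hochberg adjustment, 0 of 3613 genes (0%) passed an adjusted p of 0.05, with 499 (13.8%) at an unadjusted p under 0.05. Of the 4 members in that fit, 0 passed at an unadjusted p under 0.05 either.

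**Figure D1:**
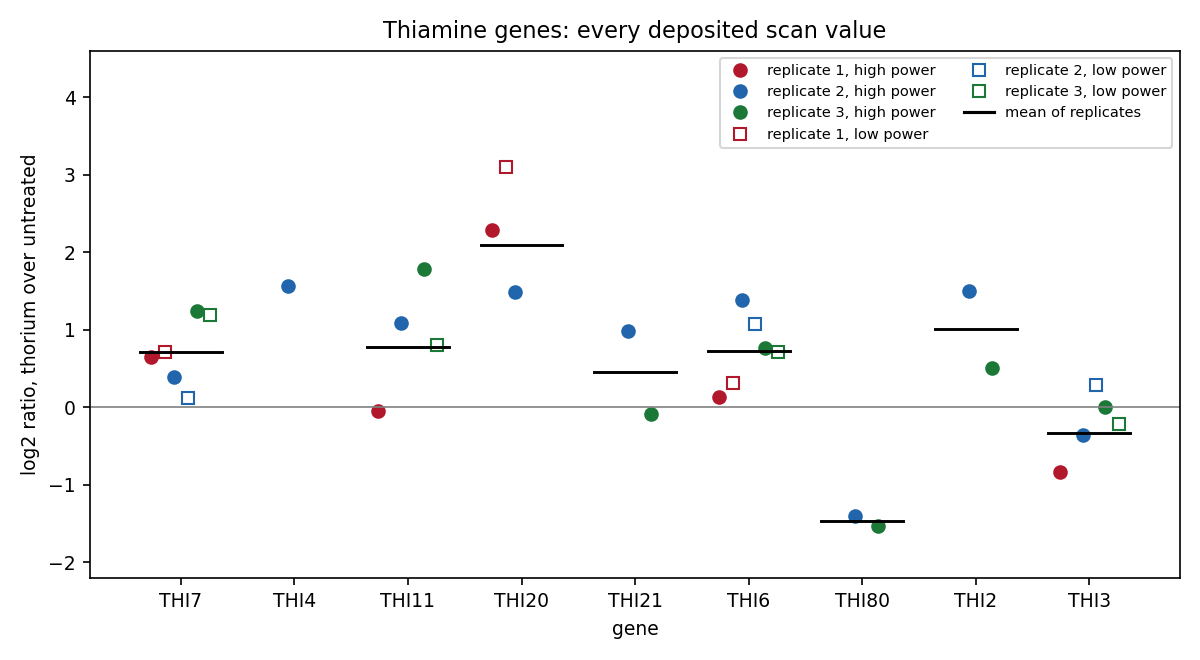
Every deposited value of 9 thiamine genes. The x axis lists the genes from the transporter through the synthesis enzymes to the regulators, and the y axis is the log2 ratio of thorium over untreated cells. Filled circles are high power scans, open squares low power scans, colours are replicates, and bars are the means of genes with at least 2 replicates. THI20 lies above 1.4 in each of its 3 scans, THI80 below -1.4 in each of its 2, and THI5 had no value.

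THI7 (YLR237W), the plasma membrane transporter that brings thiamine into the cell, had a value in all 6 scans. Its log2 ratio was 0.65 at high and 0.72 at low power in replicate 1, 0.39 and 0.12 in replicate 2, and 1.24 and 1.19 in replicate 3. All 6 scans lay above 0, replicate 3 was high and replicate 2 low. The mean of 0.72 is a ratio of 1.64, with a 95% interval from -0.03 to 1.46 on the log2 scale (limma adjusted p = 0.363). The replicates ran from 0.25 to 1.22, and the interval includes 0 although every scan has the same sign. Without replicate 3 the mean was 0.47, without replicate 2 it was 0.95, and without replicate 1 it was 0.73.

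THI4 (YGR144W) makes the thiazole part and is used up in the reaction, because the enzyme gives a sulfur atom of its own. It had a value in 1 scan, 1.57 at high power in replicate 2, a ratio of 2.96. With 1 replicate there is no spread and no test.

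THI5 (YFL058W) and THI11 (YJR156C) belong to the THI5 family, whose proteins make the pyrimidine part from histidine and pyridoxal phosphate. THI5 had no value in any scan. THI11 read -0.05 at high power in replicate 1, 1.09 at high power in replicate 2, and 1.79 at high and 0.80 at low power in replicate 3. Replicate 1 was near 0 and the other replicates were above 0.8 in each scan. The mean of THI11 was 0.78, a ratio of 1.72, with a 95% interval from -0.08 to 1.64 (limma adjusted p = 0.378). Without replicate 1 the mean was 1.19 and the adjusted p was 0.0499 over the same 3613 genes, of which 191 (5.29%) then passed. Over the 4790 genes with a value in replicates 2 and 3, a set chosen after seeing the data in which 77 (1.61%) passed, its adjusted p was 0.0666. These fits used the deposited values. After section-centring, described below, THI11 stood at 0.43, 0.54 and 0.60 in replicates 1, 2 and 3 (limma adjusted p = 0.207). A section-centred fit without replicate 1 was not run. The members of this family are near-identical, so that a probe may read several of them.

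THI20 (YOL055C) and THI21 (YPL258C) are related genes for the kinases that phosphorylate the pyrimidine part. THI20 read 2.28 at high and 3.11 at low power in replicate 1 and 1.48 at high power in replicate 2, and had no value in replicate 3. All 3 scans were well above 0, and the value of the low power scan exceeded that of the high power scan by 0.82 in replicate 1. In the limma fit over the 4956 genes with at least 2 replicates its mean of 2.09 had a 95% interval from 0.97 to 3.21 and an unadjusted p of 0.00457, which did not pass after adjustment (adjusted p = 0.262). In that fit 0 genes passed and 754 (15.2%) had an unadjusted p under 0.05. After centring on the array section, described below, THI20 stood at 2.30 ± 0.21 (SD, n = 2). Without replicate 1 it rests on the 1 scan of replicate 2, at 1.48.

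THI21 read 0.98 in replicate 2 and -0.08 in replicate 3, both at high power, and its replicates lay on either side of 0. Its mean was 0.45 ± 0.75 (SD, n = 2; limma adjusted p = 0.620), with an interval from -0.63 to 1.53. The only scan that measured both kinases was the high power scan of replicate 2, where THI20 was 0.50 higher than THI21.

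THI6 (YPL214C), the enzyme that joins the thiazole and pyrimidine parts to thiamine phosphate, had a value in all 6 scans. It read 0.14 at high and 0.31 at low power in replicate 1, 1.39 and 1.07 in replicate 2, and 0.77 and 0.72 in replicate 3. All scans were above 0, with replicate 1 low and replicate 2 high. The mean of 0.73, a ratio of 1.66, had a 95% interval from -0.02 to 1.49 (limma adjusted p = 0.362). Without replicate 1 it was 0.99 (limma adjusted p = 0.0760) and without replicate 2 it was 0.48. THI6 moved with array position. The section of the array that holds its probe had a median of 1.00 in replicate 2, and after section-centring the mean of THI6 was 0.17 ± 0.20 (SD, n = 3).

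THI80 (YOR143C), the pyrophosphokinase that turns thiamine into thiamine diphosphate, went the other way. It read -1.40 in replicate 2 and -1.53 in replicate 3, both at high power, and had no value in replicate 1. Both replicates were far below 0 and close to each other. The mean of -1.47 had a 95% interval from -2.38 to -0.56 in the limma fit over genes with at least 2 replicates (unadjusted p = 0.00842, adjusted p = 0.266). Over the genes of replicates 2 and 3 the adjusted p was 0.0555, and THI80 stood at percentile 1.44 of the 4790 means. Its array section had medians of -0.85 and -0.78 in the same replicates, and after section-centring THI80 stood at -0.65 ± 0.14 (SD, n = 2).

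The regulators THI2 and THI3 had means on either side of 0, and the difference between them was not tested. THI2 (YBR240C), a zinc finger activator of the THI genes, read 1.50 in replicate 2 and 0.51 in replicate 3, both at high power. Both replicates were above 0, with a mean of 1.00 ± 0.70 (SD, n = 2; limma adjusted p = 0.333) and an interval from -0.05 to 2.06. THI3 (YDL080C), which resembles a decarboxylase and acts as a sensor of thiamine diphosphate, read -0.84 at high power in replicate 1, -0.35 at high and 0.29 at low power in replicate 2, and 0.00 and -0.22 in replicate 3. Its replicate 1 lay well below the others, which were close to 0. The mean of THI3 was -0.33 with a 95% interval from -1.06 to 0.41 (limma adjusted p = 0.640), and without replicate 1 it was -0.07.

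Among the 4 members with all replicates the order was THI11, THI6, THI7 and THI3. The first 3 of these means ran from 0.72 to 0.78, a range smaller than any of their SDs, and the interval of THI3 overlapped those of the other genes. In the ranking of the 3613 means, THI11, THI6 and THI7 stood at percentiles 93.8, 92.9 and 92.4 and THI3 at 31.5. The median of the 4 members was 0.73, beside -0.09 for all 3613 genes. Their replicate medians were 0.09, 0.67 and 0.98 in replicates 1, 2 and 3. In the deposited values, THI6 and THI7 were above 0 in all 3 replicates, as 15.4% of all genes were. THI3 was below 0 in all 3, as 23.2% of all genes were. After section-centring, described below, THI6 stood at -0.05, 0.23 and 0.34 in replicates 1, 2 and 3, and THI7 at 0.00, 0.58 and 0.92. THI3 then stood at -0.50, 0.32 and -0.04, with a mean of -0.07. These 4 are the members with complete data and do not stand for all 10.

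Over replicates 2 and 3 alone, 7 members could be compared on the deposited values. Those above 0 in both were THI2, THI6, THI7 and THI11, 4 of 7, beside 32.3% of all genes. Those below 0 in both were THI3 and THI80, 2 of 7, beside 39.2% of all genes, and THI21 lay on both sides. The median of the 7 was 0.73, beside -0.06 for all 4790 genes. In replicate 1, the 5 members measured ran from -0.84 for THI3 to 2.69 for THI20 with a median of 0.23, and in replicate 2 the 9 measured ran from -1.40 for THI80 to 1.57 for THI4 with a median of 1.09. In replicate 3 the 7 measured ran from -1.53 for THI80 to 1.29 for THI11 with a median of 0.51.

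**Figure D2:**
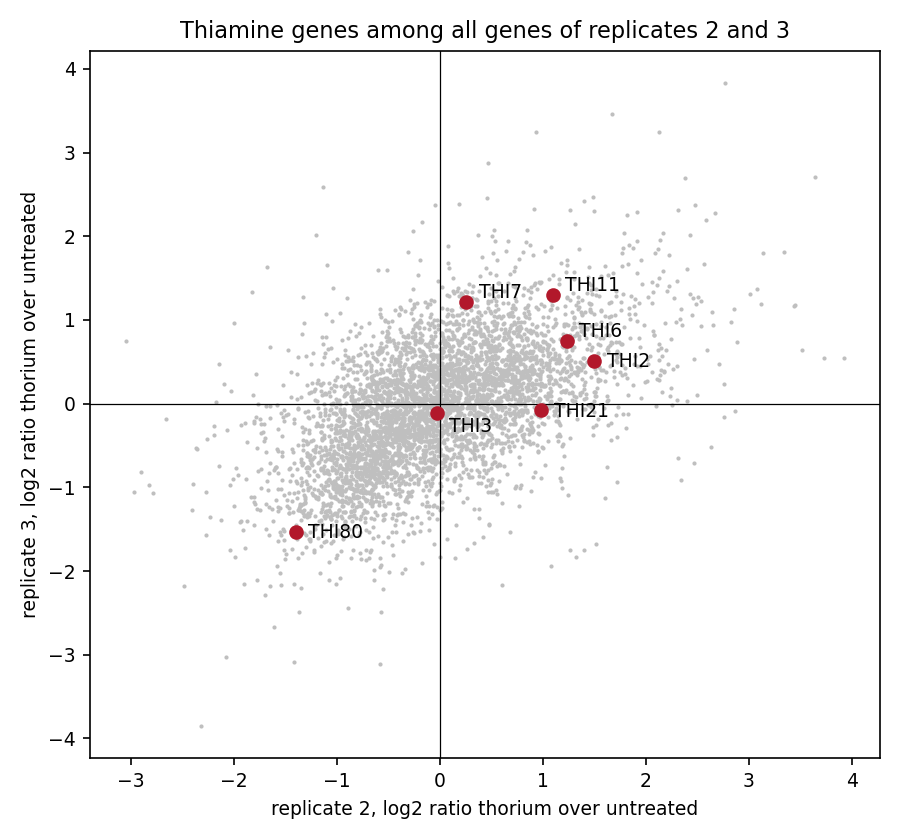
Log2 ratios of thorium over untreated cells in replicate 2 (x axis) and replicate 3 (y axis) for the 4790 genes with a value in both. Grey points are all genes and red points the 7 thiamine genes measured in both replicates. THI2, THI6, THI7 and THI11 lie in the upper right quadrant, and THI80 lies far into the lower left at -1.40 and -1.53.

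Laser power was compared within each replicate. THI6 and THI7 were the members with both scans in all replicates, and high minus low power averaged 0.06 for THI6 and 0.09 for THI7 (limma adjusted p = 0.961 and 0.960). Of the 2108 genes tested for that difference, 2 (0.0949%) passed, TIR1 and MEH1, which are no thiamine genes and were named after their values were seen. THI11, with both scans in replicate 3 only, differed there by 0.99, and THI20 in replicate 1 by -0.82. Over all genes and replicates, the absolute difference between scans had a median of 0.24, and 90% of the 10235 differences were below 0.80.

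The values of several members also moved with array position. Sections were read from the probe number, an inference from the numbers, and each scan was centred on its section medians. The mean of THI7 went from 0.72 to 0.50, that of THI11 from 0.78 to 0.53, and that of THI2 from 1.00 to 0.81. THI21 went the other way, from 0.45 to 1.06, as did THI4 in its 1 scan, from 1.57 to 2.20. The sign of the mean was the same before and after centring for each of the 8 members with at least 2 replicates. Single replicates changed sign, as THI6 and THI11 did in replicate 1, THI3 in replicate 2 and THI21 in replicate 3. After centring THI11 had an SD of 0.09 over replicates in place of 0.72. Its section medians were -0.48, 0.55 and 0.69 in replicates 1, 2 and 3.

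**Figure D3:**
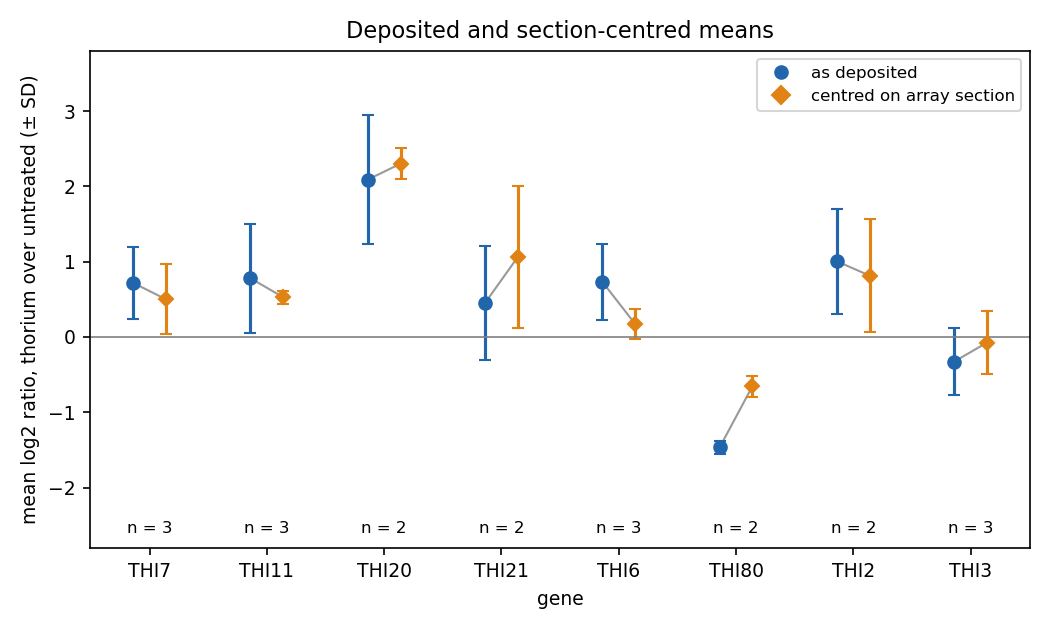
Mean log2 ratio of thorium over untreated cells (y axis) for 8 thiamine genes (x axis), as deposited (circles) and after each scan was centred on the median of its array section (diamonds). Error bars are the SD over replicates, whose number n stands under each gene. THI6 falls to 0.17 and THI80 moves to -0.65, whereas THI20 stays above 2.

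The relatives of the members gave mixed values. Of 6 further genes named THI, 5 had a value in at least 2 replicates. THI12, of the THI5 family, read 0.96 in replicate 2 and 0.68 in replicate 3, and THI13, of the same family, read -1.30 and 0.57. These near-identical genes thus differed by 2.26 at high power in replicate 2 and by 0.11 in replicate 3. After section-centring THI12 stood at 1.16 and 0.26 and THI13 at -0.47 and 0.71 in replicates 2 and 3. THI72, a close relative of the transporter gene THI7, read 1.79 at high power in replicate 1, and 1.05 at high and 1.49 at low power in replicate 3. All 3 scans were above 1, and its mean was 1.53 ± 0.37 (SD, n = 2), a ratio of 2.89 (limma unadjusted p = 0.00844, adjusted p = 0.266), and 0.80 after section-centring. Without replicate 1 it rests on replicate 3, at 1.27. THI22, related to THI20 and THI21, stood at 0.07 ± 0.57 and THI74, a transporter gene that thiamine represses, at -0.05 ± 0.39 (SD, n = 3), and THI73 had no value.

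In the wider pathway PDC5 had the smallest unadjusted p of the 4 pathway lists in the fit on 3 replicates. It encodes a minor pyruvate decarboxylase that is known to be raised when thiamine is scarce. It read 0.92 at high and 1.12 at low power in replicate 1, 1.29 at low power in replicate 2, and 0.91 in both scans of replicate 3. All 5 scans lay close together, and the mean was 1.07 ± 0.19 (SD, n = 3), a ratio of 2.10. Its 95% interval ran from 0.41 to 1.74, with a limma adjusted p of 0.271, a value it shares with other genes. By unadjusted p it ranked 92 among the 3613 genes. Without replicate 1 its mean was 1.10 (limma adjusted p = 0.0809 over the 4790 genes), and in that fit BUD16 and ARO10, both below 0, had smaller adjusted p of 0.0589 and 0.0595. The major pyruvate decarboxylase gene PDC1 stood at -0.14 ± 0.05 and PDC6 at 0.16 ± 0.53 (SD, n = 3). In the deposited values PDC5 was thus on the same side of 0 as THI6 and THI7 in every replicate. PDC1 was on the other side but close to 0, at percentile 46.2 of the 3613 means, and its low power scan of replicate 2 read 0.24. After section-centring PDC5 stood at 0.83 ± 0.54 and PDC1 at 0.14 ± 0.62.

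The other enzymes that use thiamine diphosphate were split between positive and negative ratios. Of the 10 in the list 6 had all 3 replicates, with a median of -0.28. Of these, PDC5 was above 0 in every replicate of the deposited values, 1 of 6 beside 15.4% of all genes. PDC1 and PDA1 were below 0 in every replicate of the deposited values, 2 of 6 beside 23.2% of all genes. After section-centring neither was, with PDA1 at -0.04, 0.03 and 0.01 in replicates 1, 2 and 3. The transketolase genes TKL1 and TKL2 stood at 0.37 ± 0.24 and 1.05 ± 0.85, and KGD1, of the 2-oxoglutarate dehydrogenase complex, at 0.40 ± 0.05 (SD, n = 2). The genes of the decarboxylating part of pyruvate dehydrogenase, PDA1 and PDB1, stood at -0.42 ± 0.30 and -0.43 ± 0.78 (SD, n = 3). ILV2, an acetolactate synthase gene, stood at -0.63 ± 0.69 (SD, n = 2). ARO10, a decarboxylase of amino acid breakdown, read 1.39 in replicate 1 and -1.67 and -1.03 in replicates 2 and 3. By the adjusted limma test 0 of the 10 passed. After section-centring TKL1, KGD1, PDA1 and ILV2 stood between 0.00 and 0.05, and PDB1 at -0.14, ARO10 at -0.22 and TKL2 at 1.75.

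Pyridoxal phosphate is a substrate of the THI5 family, and SNZ3 lies next to THI5 and SNZ2 next to THI12 on the chromosomes of the reference strain. Of 8 genes in the pyridoxine list, 3 had all replicates. In every replicate 0 of these were above and 0 below 0, beside 15.4% and 23.2% of all genes, and their median was -0.27. That median was 0.12 after section-centring and 0.02 without replicate 3. SNZ2 and SNO2, neighbours that encode subunits of the same kind of synthase, differed in the deposited values. SNO2 read 1.13 and 1.20 in replicate 2 and 0.28 and 0.45 in replicate 3, at high and low power, whereas SNZ2 read -0.80 and -0.91, and -0.37 and -0.31, in the same scans. After section-centring SNO2 stood at 0.99 and 0.09 and SNZ2 at -0.18 and 0.45 in replicates 2 and 3, so that SNZ2 was the higher in replicate 3. SNZ1 stood at -1.59 in replicate 1, 1.72 in replicate 2 and -0.94 in replicate 3. BUD16, a pyridoxal kinase gene, read -1.30 and -1.33 in replicates 2 and 3 (limma adjusted p = 0.270), and -0.44 on average after section-centring. Its array section had medians of -0.90 and -0.85. PDX3, an oxidase that makes pyridoxal phosphate, stood at -0.33 ± 0.51 (SD, n = 3).

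PDC2, the DNA-binding activator of THI genes and of pyruvate decarboxylase genes, was below 0 in all 6 scans. It read -1.60 at high and -0.28 at low power in replicate 1, -0.31 and -0.81 in replicate 2, and -0.36 and -0.29 in replicate 3. The mean was -0.61 ± 0.31 (SD, n = 3; limma adjusted p = 0.387), -0.44 without replicate 1, and -0.25 after section-centring. PHO3, an acid phosphatase that thiamine represses and that releases thiamine from its phosphates, stood at 1.25 in replicate 1 and at -0.07 and -0.46 in replicates 2 and 3. After section-centring PHO3 stood at 0.98, 0.60 and 0.17 in replicates 1, 2 and 3. TPC1, the mitochondrial carrier of thiamine diphosphate, read -0.80 in replicate 2 and 0.37 in replicate 3.

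**Figure D4:**
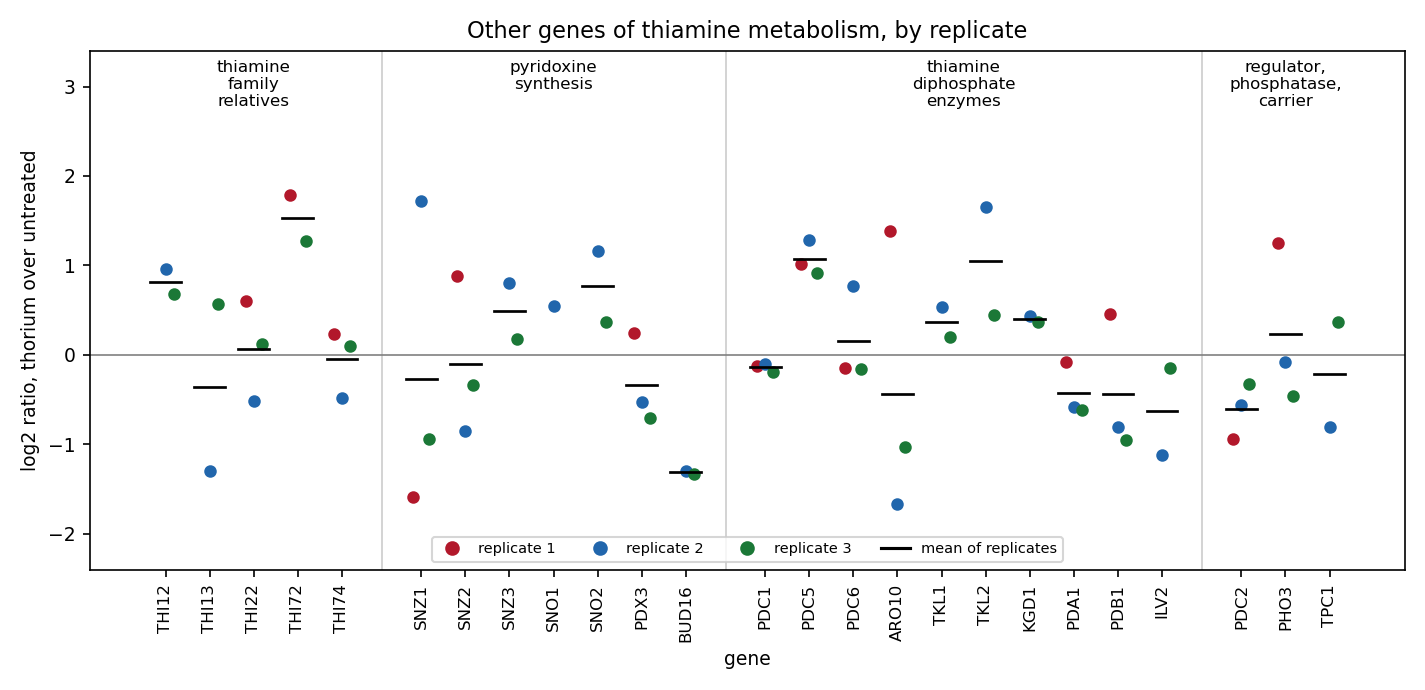
Log2 ratio of thorium over untreated cells (y axis) for 25 other genes of thiamine metabolism (x axis), grouped by role. Points are replicates and bars are means of at least 2 replicates. PDC5 has all 3 replicates between 0.91 and 1.29, THI72 both of its values above 1.2, and PDC2 all 3 below 0.

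The genes whose pattern was nearest to that of THI11 over the 3 replicates, by root mean square distance of the log2 ratios among 3613 genes, were GPH1 at 0.13, NTH1 at 0.15, and GIT1, FRK1 and RBH1 at 0.16 to 0.17. All of these read near 0 in replicate 1 and above 0.8 in replicates 2 and 3. GPH1, which encodes glycogen phosphorylase, read 0.05, 0.89 and 1.33, and NTH1, a trehalase gene, read 0.16, 0.98 and 1.19. Nearest to THI3 were SEC1, MSY1, GSH2, KAR4 and MEC3, at distances of 0.07 to 0.10, with replicate 1 between -0.96 and -0.87 and the other replicates between -0.16 and 0.14. Over 3 values such a likeness is a description only, and it was sought in the deposited values. After section-centring THI11 stood at 0.43, 0.54 and 0.60 in replicates 1, 2 and 3. How much of these likenesses comes from array position was not tested.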

How the data were processed

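The authors deposited a log2 ratio per spot and scan. Per the labels, they LOWESS-normalized the unflagged spots (flag 0), and GeneSpring was used for merged values that are not used here. Scanner, background step and software versions are not given in the sources. As deposited, scan medians ran from -0.16 to 0.01. Signal intensities were not used. The platform annotation names 1 gene for 5513 of 6912 probes, and 5360 of 5365 genes matched the reference table (assembly R64). No sequence is printed, and no coordinates, since no build is named for the arrays. Scans gave values for 2782 to 5483 probes, and precision is limited by having 3 arrays.

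Values were averaged over a gene's probes and then over each replicate's scans. The mean was tested against 0 with limma 3.58.1 in R 4.3.3 (lmFit, eBayes, 2 residual and 4.43 prior degrees of freedom), two-sided, with Benjamini-Hochberg adjustment at 0.05 over all genes tested, and with the same fit over genes with at least 2 replicates, where the limma variance of a gene with 2 values rests on 1 difference and the prior. Lists are described by counts and medians. Sections with at least 5 genes were centred on their median. The fit was also run on simulated data with independent replicates and no section shifts. That setting differs from these data, so it cannot show how the fit does on them. The members, the lists and the section-centring were chosen with earlier results of these data known. The text names all members, any gene of the 4 pathway lists, and the 5 genes nearest in pattern to THI11 and THI3, which have the largest and the smallest mean among the members with all 3 replicates.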

Additional observations from a re-analysis of the deposited data

How the results depend on the processing

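With limma, the count of genes past the adjusted threshold was 0, and 184 to 914 at an unadjusted p under 0.05, with either scan power by itself, a random replicate block over all 6 scans, median, quantile or section-centring, both other filters on missing values, array weights, a robust prior, the median of probes, and without replicate 2 or 3. Leaving out 1 replicate gave 0 to 191 genes, with 191 without replicate 1, and 77 over the genes of replicates 2 and 3, a setting chosen after seeing the data. For high against low power, leaving out 1 replicate gave 0 to 2 genes, with 0 without replicate 1 (63 at an unadjusted p under 0.05). The means of THI3, THI6, THI7 and THI11 kept their sign in every alternative that gave a value, from -0.47 to -0.07, 0.17 to 0.99, 0.47 to 0.95 and 0.52 to 1.19. THI11 alone crossed the threshold, and only in the deposited values without replicate 1 (adjusted p = 0.0499, with 0.0666 to 0.882 in its other alternatives). The means of THI2, THI20, THI21 and THI80 kept their sign in the alternatives run with at least 2 replicates, which were also chosen after seeing the data. The median of the measured members ran from 0.34 to 0.86. The median of the enzymes that use thiamine diphosphate moved from -0.28 to 0.0701 after section-centring and to 0.0813 over replicates 2 and 3, where 10 genes in place of 6 had a value. The median of PDC2 and PHO3 moved from -0.18 to 0.17 after section-centring, as PDC2 went from -0.61 to -0.25 and PHO3 from 0.24 to 0.58. Why the medians of their sections were below 0 on average was not tested. The pyridoxine median of -0.27 lay between -0.60 and 0.12, above 0 after section-centring (0.12) and without replicate 3 (0.0150). The median of THI22 and THI74 was 0.01, and that of the relatives named THI lay between -0.19 and 0.27 in the alternatives. Signal over background is unknown here, so the ratios that rest on dim spots cannot be singled out.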

Other observations

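Over the 3613 genes, 32.2% had replicate 1 on the opposite side of 0 from both replicates 2 and 3, and some genes of the wider pathway were among them. ARO10 read 1.39 against -1.67 and -1.03, PHO3 read 1.25 against -0.07 and -0.46, and PDB1 read 0.46 against -0.80 and -0.95. After section-centring ARO10 and PDB1 kept these signs. PHO3 was then above 0 in every replicate, at 0.98, 0.60 and 0.17. SNZ1 instead had replicate 2 alone above 0, at 1.72.

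The near-identical genes THI11, THI12 and THI13 read 1.09, 0.96 and -1.30 in the high power scan of replicate 2, and 1.79, 0.68 and 0.57 in that of replicate 3. For comparison, 28 genes of the array with 2 differing probe values in a scan gave 84 pairs, whose absolute difference had a median of 0.64, with 90% below 1.63. The difference between THI11 and THI13 was 2.39 in replicate 2, the largest of the comparisons made between related THI genes and singled out after it was seen, and 1.22 in replicate 3. These differences are between deposited values. In replicate 2 the section medians were 0.55 for THI11 and -0.83 for THI13. After section-centring THI11 and THI13 stood at 0.54 and -0.47 in replicate 2, and at 0.60 and 0.71 in replicate 3. In replicate 3 the centred THI11 value averages the high and low power scans, whereas THI13 has the high power scan alone. That pair is thus not the same comparison as the difference of 1.22 at high power. Whether these probes read the same transcripts was not tested.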
